A study of Mus musculus with 32 samples.

Results

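Ltf, Lcn2, Camp, Ngp, Retnlg, Ly6g, S100a8, S100a9, Mmp8 and Mmp9 encode proteins of the late granules, the cytosol and the surface of maturing neutrophils. They are a list of 10 named genes. No threshold on a measured value chose them, but the list was chosen with earlier results of these data known. Each of the 10 names matched 1 gene of the 41388 in the count tables, and all 10 passed the filter on low counts that left 14527 genes for testing. Neutrophils are made in the bone marrow and load their granules in order. Primary granules are filled first, in promyelocytes, then specific granules in myelocytes and metamyelocytes, and gelatinase granules last, in band cells and segmented cells. The transcription factor C/EBP epsilon, encoded by Cebpe, drives much of the specific granule program, and the chemokine CXCL12, made by marrow stromal cells, holds neutrophils in the marrow through the receptor CXCR4.

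The samples were RNA from whole femoral marrow of C57BL/6 mice aged 2 months, 32 libraries in 8 groups of 4 mice. DTRADQ mice carried the DTR flox allele, a Cre-dependent diphtheria toxin receptor, and ADQ Cre+, a Cre transgene under the adiponectin promoter. Their Cre-negative littermates (labelled Con, here called controls) carried DTR flox with no Cre, so both genotypes held the receptor allele. Each genotype was sampled without diphtheria toxin (no DT) and after 1, 2 or 3 days of daily intraperitoneal toxin at 100 ng per mouse. The adiponectin promoter is active in adipocytes and in adipocyte-lineage stromal cells of the marrow. In whole marrow, a change in the number of neutrophils and a change in RNA per neutrophil cannot be told apart.

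Library totals ran from 8966165 to 22929352 counts. Adipoq, which encodes adiponectin and whose promoter drives Cre here, lay between 0.221 and 1.07 CPM (read counts scaled to library size by the TMM method) in the 12 toxin-treated DTRADQ libraries and between 32.1 and 66.3 CPM in the 12 toxin-treated control libraries. Without toxin its range was 28.6 to 47.6 CPM in DTRADQ libraries and 43.2 to 134 CPM in control libraries (log2 difference -1.24, adjusted p = 0.000554, and -0.68, adjusted p = 0.0586, without control replicates 3 and 4). All 4 stromal markers (Adipoq, Lepr, Cxcl12 and Kitl) were lower in DTRADQ on each toxin day. Replicates 3 and 4 of the no-DT controls stood apart from all other libraries: they had the lowest totals, TMM factors of 0.726 and 0.565 against 0.853 to 1.19 elsewhere, and the 10 most abundant genes took 37.4% and 50.7% of their counts. In the labels, libraries of day 3 are marked with lane 8 in both genotypes and the remaining libraries with all lanes, so comparisons between day 3 and other days follow that label and comparisons of the genotypes on one day do not.

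On the deposited RPKM scale (reads per kilobase of exon, scaled to library size), the median over 32 libraries was 96494 for S100a8 and 34909 for S100a9, the partners of calprotectin, a calcium- and zinc-binding protein of the neutrophil cytosol. Ngp, a cystatin-related granule protein, followed at 24601, and Camp, the cathelicidin antimicrobial peptide, at 13337 RPKM. Retnlg, a resistin-like secreted protein, had a median of 7368 RPKM, Ltf, the iron binder lactoferrin, 3024, and Lcn2, the siderophore binder lipocalin 2, 1695. The lowest were Mmp8, neutrophil collagenase, at 839 RPKM, Ly6g, a surface protein used to identify mouse neutrophils, at 181, and Mmp9, gelatinase B, at 95.3. S100a8 was first, S100a9 second and Mmp9 last in each of the 32 libraries. Neighbours further down the order did not keep their places throughout. Ngp, Camp, Mmp8 and Ly6g left their usual rank in 2 of the 32 libraries each, Ltf and Lcn2 in 3, and Retnlg in 1, control no-DT replicate 4, where Ngp at 2696 RPKM lay below both Camp and Retnlg. Together the 10 genes took between 7.17% and 16.3% of all counts of a library.

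The genes lie on 5 chromosomes of GRCm38. Camp (chr9:109847375-109849456), Ngp (chr9:110419750-110423010) and Ltf (chr9:111019292-111042766) lie within 1195 kb of each other, and Mmp8 is on the same chromosome at chr9:7558429-7568486. S100a8 (chr3:90669071-90670034) and S100a9 (chr3:90692632-90695721) are neighbours 22.6 kb apart on opposite strands. Lcn2 (chr2:32384633-32387797) and Mmp9 (chr2:164940780-164955850) share chromosome 2, Retnlg is at chr16:48872608-48874498, and Ly6g at chr15:75155240-75159126. No exon base of the 10 gene models is shared with another gene of the tables. Ly6g belongs to a family of similar genes, and whether the counting split reads among them is not given in the sources used here, so its level is uncertain.

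The sequence just upstream of the gene start is shown for 6 of the 10 genes: 4 granule proteins of different levels and the calprotectin pair. RefSeq promoter windows (GRCm38.p6) were at hand for 9 genes, all but Mmp9. Capitals mark matches, on either strand, to TTNNGNAA, a pattern that C/EBP factors can bind. Windows were at most 250 bases, and those of Lcn2, Ngp and Ly6g were shorter. The windows hold the 250 bases before the RefSeq start, or 192 for Lcn2 and Ngp, whose windows were shortened at the start of the longer deposited gene model. They are chr9:111019042-111019291 (plus strand), chr2:32387798-32387989 (minus), chr9:109849457-109849706 (minus), chr9:110419558-110419749 (plus), chr3:90668821-90669070 (plus) and chr3:90695722-90695971 (minus), each written 5′ to 3′ along the gene.
Ltf: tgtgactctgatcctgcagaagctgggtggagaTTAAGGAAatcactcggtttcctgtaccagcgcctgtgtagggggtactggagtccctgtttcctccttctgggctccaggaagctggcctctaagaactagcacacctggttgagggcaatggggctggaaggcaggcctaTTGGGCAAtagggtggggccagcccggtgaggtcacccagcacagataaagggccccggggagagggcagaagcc
Lcn2: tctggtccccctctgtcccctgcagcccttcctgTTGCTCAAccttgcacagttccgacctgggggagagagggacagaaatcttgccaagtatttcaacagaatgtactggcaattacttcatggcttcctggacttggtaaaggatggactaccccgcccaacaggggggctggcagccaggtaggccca
Camp: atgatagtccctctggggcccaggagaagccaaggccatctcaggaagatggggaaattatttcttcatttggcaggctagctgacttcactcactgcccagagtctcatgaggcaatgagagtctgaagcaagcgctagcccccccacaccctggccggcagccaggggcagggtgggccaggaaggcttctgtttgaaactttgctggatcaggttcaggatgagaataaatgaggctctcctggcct
Ngp: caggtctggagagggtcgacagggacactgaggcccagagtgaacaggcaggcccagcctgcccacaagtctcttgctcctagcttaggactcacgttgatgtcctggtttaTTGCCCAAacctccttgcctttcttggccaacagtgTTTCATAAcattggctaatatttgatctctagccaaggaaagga
S100a8: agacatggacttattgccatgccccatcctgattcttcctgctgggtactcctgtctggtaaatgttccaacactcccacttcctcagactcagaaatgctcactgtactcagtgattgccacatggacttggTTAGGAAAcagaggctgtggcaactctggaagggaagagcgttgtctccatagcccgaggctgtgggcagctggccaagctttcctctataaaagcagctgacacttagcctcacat
S100a9: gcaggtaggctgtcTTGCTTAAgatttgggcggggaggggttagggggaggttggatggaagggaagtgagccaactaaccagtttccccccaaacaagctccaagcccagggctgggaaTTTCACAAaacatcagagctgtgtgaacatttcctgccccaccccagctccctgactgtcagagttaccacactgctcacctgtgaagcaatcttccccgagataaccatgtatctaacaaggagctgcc
Of the 9 genes, 8 held at least 1 match in their window, and Camp held none. Among the 32851 promoter windows of 250 bases in the table, 36.8% held a match. The core TATAAA of a TATA box, found in 12.4% of those windows, was present in 2 of the 9 genes, Ly6g and S100a8, where it begins 30 bases before the start. The ETS-type core GAGGAA, which can be bound by PU.1, was present in 4 of the 9 (Ltf, Ly6g, S100a8 and Mmp8) and in 23.3% of all windows. These matches describe letters and are not evidence of binding, and their part in the levels of the 10 genes was not tested.

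Without toxin, the control libraries ranged more widely than the DTRADQ libraries for each of the 10 genes but Mmp9. S100a8 measured 37916, 74051, 100443 and 147685 CPM in control replicates 1 to 4 and 39333, 42507, 38148 and 45466 CPM in the DTRADQ libraries. Ltf measured 7895, 6570, 1908 and 1146 CPM in the controls and 7747, 7742, 6829 and 7119 in DTRADQ. Ngp measured 35379, 47431, 32372 and 5814 CPM in the controls and 25144, 27618, 26481 and 31424 in DTRADQ. So the calprotectin gene was highest, and the genes for lactoferrin and Ngp lowest, in control replicate 4, while the 4 DTRADQ libraries lay close together. Control replicate 2 also lay above every library of the other groups for S100a8, S100a9, Camp, Retnlg, Ngp and Ly6g. Relative to the mean of control replicates 1 and 2, replicate 4 held 2.64 times the S100a8, 2.53 times the S100a9, 2.44 times the Camp, 2.02 times the Retnlg and 1.57 times the Ly6g. It held 0.841 times the Lcn2, 0.869 times the Mmp9, 0.26 times the Mmp8, 0.158 times the Ltf and 0.14 times the Ngp. In the same library the haemoglobin gene Hbb-bs took 14.8% of counts, against 4.23% and 5.79% in replicates 1 and 2, and Gm42418, a gene model that overlaps ribosomal RNA sequence, took 5.9%.

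**Figure D1:**
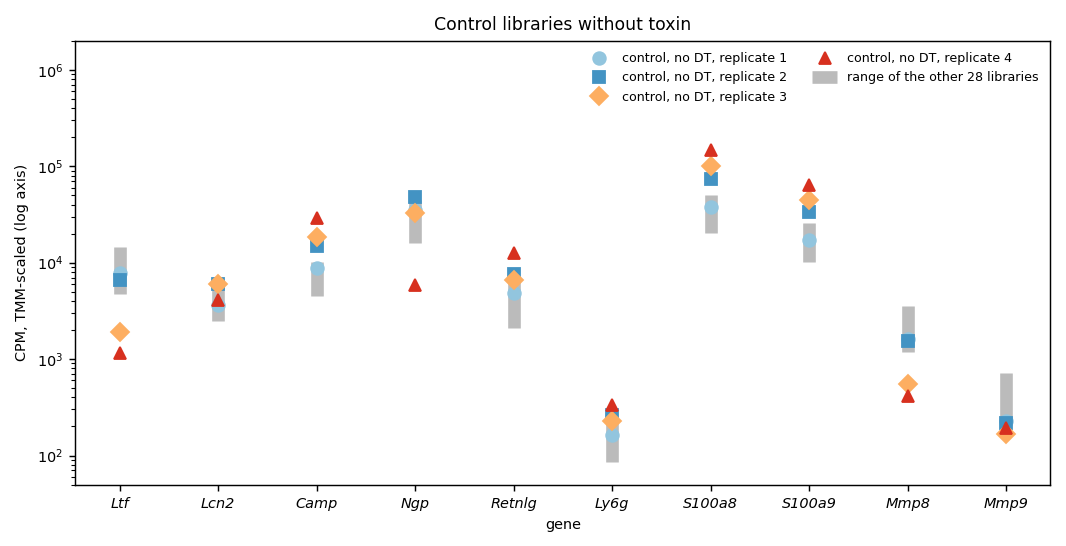
TMM-scaled CPM (log axis) of the 10 genes in the 4 control libraries without toxin, each a marker, with grey bars for the range over the 28 libraries of the other groups. Replicate 4 lies above the grey range for Camp, Retnlg, Ly6g, S100a8 and S100a9 and below it for Ltf, Ngp, Mmp8 and Mmp9, with Ltf at 1146 and S100a8 at 147685 CPM. Replicate 2 lies above the grey range for Camp, Ngp, Retnlg, Ly6g, S100a8 and S100a9.

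With all libraries, 5 of the 10 genes were lower in DTRADQ than in controls without toxin, against 14.4% of all genes tested (edgeR quasi-likelihood test, Benjamini-Hochberg adjusted p below 0.05, here called passing the test). These were Camp (log2 difference -1.16, SE 0.25, adjusted p = 0.00077), Retnlg (-1.07, SE 0.24, adjusted p = 0.00139), S100a9 (-1.07, SE 0.27, adjusted p = 0.00352), S100a8 (-1.12, SE 0.28, adjusted p = 0.00413) and Ly6g (-0.62, SE 0.19, adjusted p = 0.0158). In 3 of the 5, Camp, Retnlg and Ly6g, the groups did not overlap, against 5.42% of all genes. The other 5 did not pass: Ltf at 0.75 (SE 0.35), Lcn2 at -0.46 (SE 0.20), Ngp at -0.13 (SE 0.33), Mmp8 at 0.74 (SE 0.29) and Mmp9 at 0.46 (SE 0.20). The 5 genes that passed (Camp, Retnlg, S100a9, S100a8 and Ly6g) are the shortest of the 10, with exon lengths of 392 to 942 bases. In control replicates 1, 2 and 3, the deviation of a gene from its mean over libraries fell with exon length (Spearman's rho over genes -0.20, -0.37 and -0.24, against -0.11 to 0.20 in the 28 libraries of the other groups). In control replicate 4, with the highest S100a8 and the lowest Ltf of the 4, it did not over all genes (rho 0.005). Among the 10 genes, that library nevertheless held 1.57 to 2.64 times the mean of replicates 1 and 2 for the 5 shortest. For the 5 longer genes it held 0.14 to 0.869 times that mean. With a correction for exon length, 3 of the 10 passed, Camp (-0.70) and Retnlg (-0.63) lower and Mmp8 (0.76) higher, and 0 passed when control replicates 3 and 4 were left out as well. With control replicates 3 and 4 left out and no such correction, only Retnlg of the 10 was lower (log2 difference -0.72, SE 0.23, adjusted p = 0.0376), against 7.17% of genes, and Camp stood at -0.56 and S100a8 at -0.43. The controls left in that fit, replicates 1 and 2, held 4885 and 7550 CPM of Retnlg, and replicate 2 lay above every library of the other groups. With control replicate 1 alone left out, 9 of the 10 passed in one direction or the other, and without replicate 4 alone Ly6g did not (adjusted p = 0.1). The share of all genes that passed without replicate 1 is not given here. With the replicate number as a block, Ltf (0.89, adjusted p = 0.0398) and Mmp8 (0.81, adjusted p = 0.0216) also passed, both higher in DTRADQ.

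After 1 day of toxin all 10 genes had higher mean levels in DTRADQ than in controls, with log2 differences from 0.42 for S100a9 to 0.90 for Retnlg and a median of 0.56 (median of all genes tested -0.01). Retnlg measured 4492, 5963, 5247 and 5026 CPM in DTRADQ and 3528, 3126, 2082 and 2359 CPM in controls. It was the 1 gene of the 10 that passed the test (log2 difference 0.90, SE 0.24, adjusted p = 0.0246), against 0.888% of all genes higher in DTRADQ. Lcn2, Ngp and Retnlg were the 3 genes whose groups did not overlap on this day, against 5.08% of all genes. For Lcn2, the DTRADQ libraries measured 3907, 5691, 4287 and 4120 CPM and the controls 3577, 3101, 2495 and 2608 (log2 difference 0.61, SE 0.20, adjusted p = 0.0813). The Retnlg call was lost without DTRADQ replicate 2 or 3 or control replicate 3 or 4, where its adjusted p lay between 0.0552 and 0.126, so that 0 of the 10 then passed, and 3 passed without control replicate 1. Without the 2 no-DT control libraries that stood apart, which are no part of this comparison but share its estimate of spread, Ltf, Lcn2, Ngp, Retnlg, Ly6g and Mmp8 passed, 6 of 10 against 3.03% of genes.

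**Figure D2:**
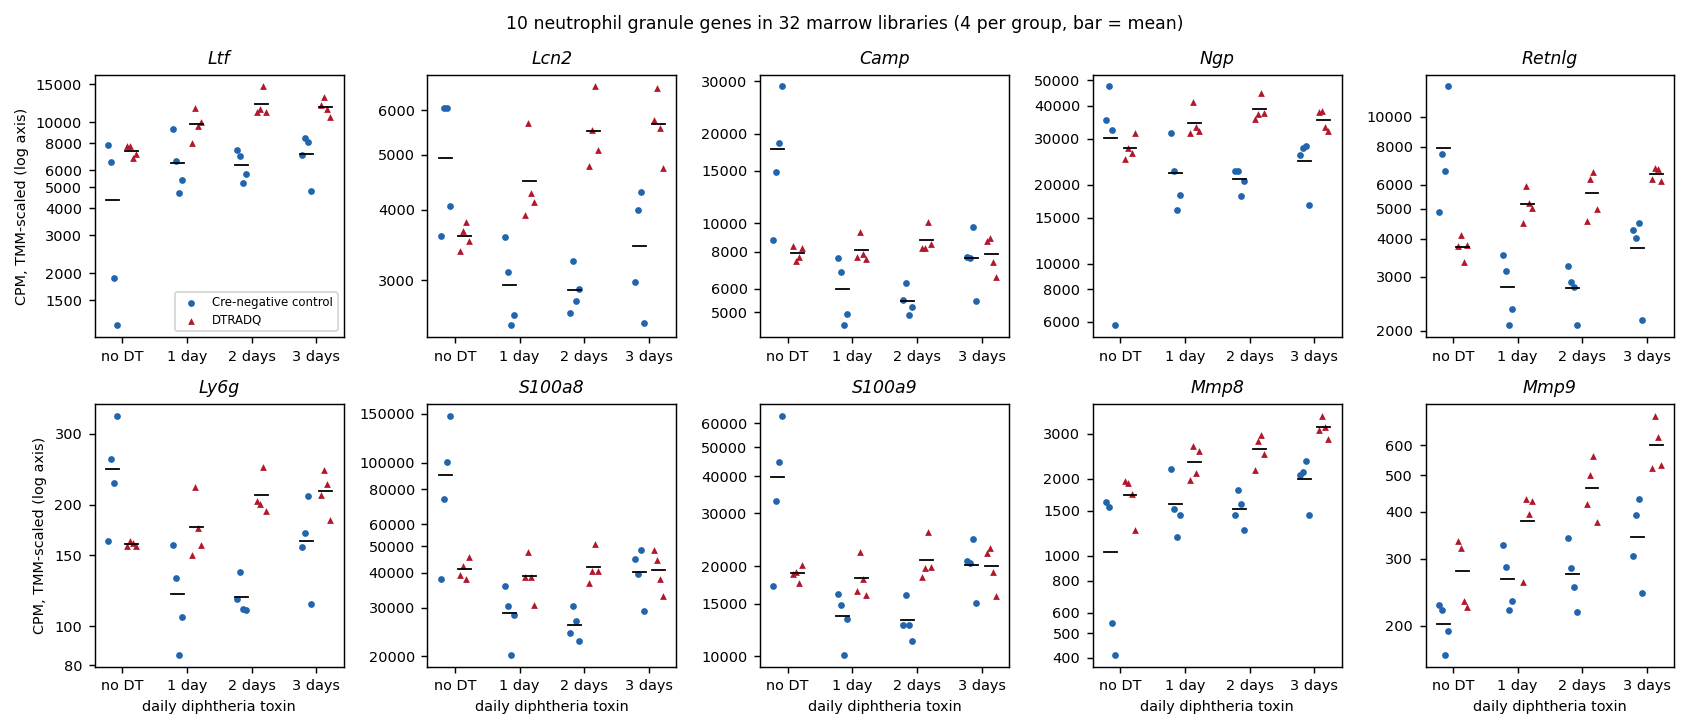
TMM-scaled CPM (log axis) of each of the 10 genes in all 32 libraries by days of toxin, with circles for Cre-negative controls, triangles for DTRADQ and a bar at each group's mean. On day 2 every DTRADQ library lies above every control library for each of the 10 genes, for example 4578 to 6623 against 2087 to 3267 CPM for Retnlg.

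After 2 days of toxin the separation was complete on TMM-scaled CPM. For each of the 10 genes, the lowest of the 4 DTRADQ libraries lay above the highest of the 4 controls, against 10.7% of all genes tested. On the deposited RPKM, which carry no TMM scaling, S100a9 and Mmp9 overlapped. The lowest DTRADQ library held 33823 RPKM of S100a9 and the highest control 35045, and for Mmp9 these were 93.8 and 115. Lcn2 measured 4781, 5540, 6606 and 5108 CPM in DTRADQ and 2628, 3244, 2759 and 2891 CPM in controls. Retnlg measured 4578, 6281, 6623 and 5009 CPM against 3267, 2887, 2771 and 2087. Ly6g measured 204, 201, 249 and 193 CPM against 117, 136, 111 and 110. These 3 genes, a siderophore binder, a secreted resistin-like protein and a surface marker, were among the 4 of 10 that passed the test, against 4.4% of all genes higher in DTRADQ. Lcn2 differed by 0.94 (SE 0.20, adjusted p = 0.00316), Ly6g by 0.84 (SE 0.19, adjusted p = 0.00583), Retnlg by 1.03 (SE 0.24, adjusted p = 0.00683) and Mmp9 by 0.76 (SE 0.20, adjusted p = 0.0149) on the log2 scale.

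Mmp9, the gelatinase, measured 418, 499, 560 and 375 CPM in DTRADQ and 340, 284, 252 and 217 CPM in controls on day 2. Mmp8, the collagenase of specific granules, measured 2171, 2818, 2956 and 2497 CPM against 1438, 1802, 1597 and 1260. Ltf, lactoferrin, measured 11138, 11581, 14663 and 11116 CPM against 7453, 6963, 5260 and 5735. The Mmp9 groups were the closest to touching, with 375 in the lowest DTRADQ library and 340 in the highest control. Ngp measured 35766, 37366, 44813 and 37620 CPM in DTRADQ and 22601, 22609, 18091 and 20619 in controls. Camp measured 8254, 8251, 10062 and 8493 CPM against 5497, 6279, 4906 and 5210. S100a8 measured 36695, 40526, 50698 and 40502 CPM against 24207, 30460, 26780 and 22665, and S100a9 measured 18367, 19795, 26066 and 19938 against 12720, 16055, 12775 and 11223. DTRADQ replicate 3 was the highest of its group for all 10 genes. The 6 genes that did not pass had log2 differences of 0.93 (Ltf, SE 0.35), 0.89 (Ngp, SE 0.33), 0.78 (Mmp8, SE 0.29), 0.69 (S100a8, SE 0.28), 0.68 (Camp, SE 0.24) and 0.67 (S100a9, SE 0.26), with adjusted p between 0.0756 and 0.118.

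How many of the 10 passed on day 2 changed with the libraries in the fit, while the differences themselves moved little. Without control no-DT replicates 3 and 4, all 10 passed, against 9.9% of genes, with log2 differences from 0.69 to 1.04 and adjusted p from 0.000426 to 0.0148. All 10 passed also in a fit of the 8 day-2 libraries alone and by DESeq2. The share of all genes called in those fits is not given here, so these counts cannot be judged against it. Mmp9 lost its call without DTRADQ replicate 3 or without control replicate 3 or 4, with adjusted p between 0.0556 and 0.0732. TMM scaling moved the centre of all genes: unscaled, the median genotype difference of all genes was 0.41 without toxin and -0.25, -0.36 and -0.18 on days 1, 2 and 3. On that unscaled footing all 10 genes still had higher levels in DTRADQ on day 2, by 0.36 to 0.71 on the log2 scale, and 3 of them (Lcn2, Retnlg and Ly6g) passed. Over all genes, 1849 were higher and 2095 lower in DTRADQ without toxin, 129 and 438 on day 1, 639 and 599 on day 2, and 1279 and 2051 on day 3. Unscaled, these became 5149 and 684, 52 and 1975, 183 and 4040, and 540 and 3201.

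**Figure D3:**
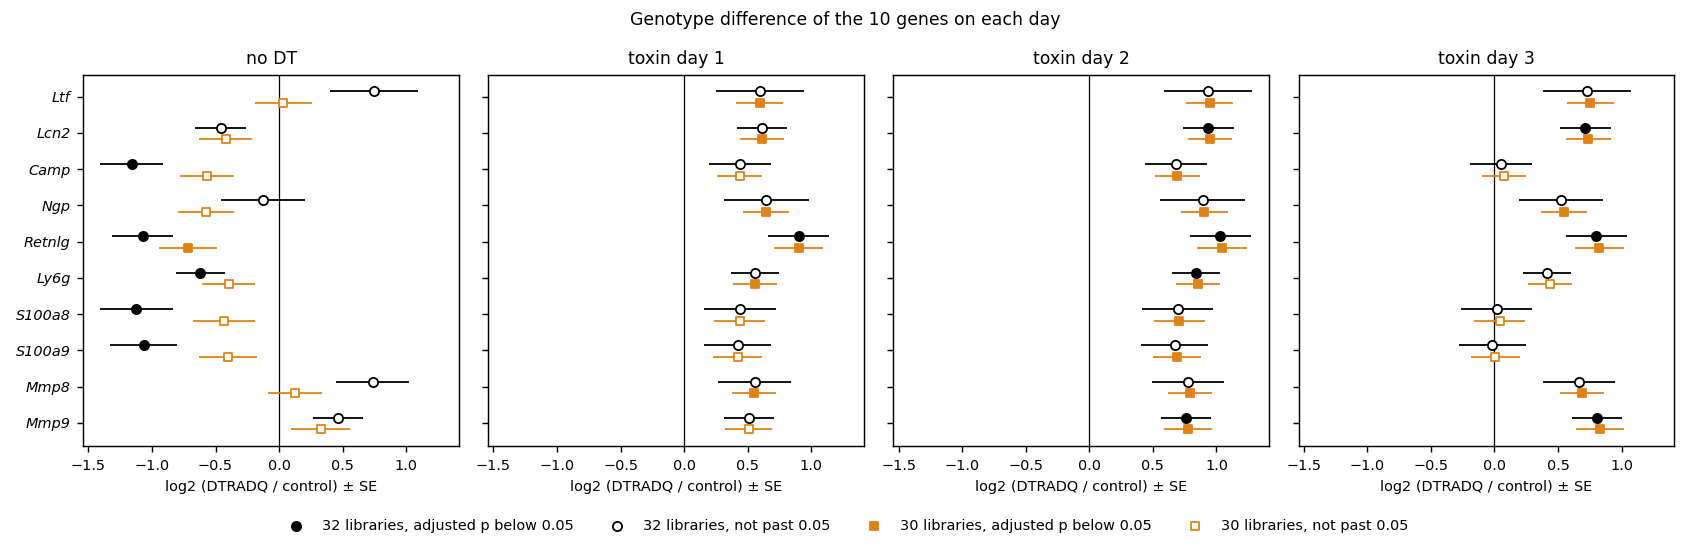
Log2 difference DTRADQ over control with its standard error for the 10 genes, without toxin and on each toxin day, from all 32 libraries (black circles) and from 30 libraries without control no-DT replicates 3 and 4 (orange squares), filled where the adjusted p was below 0.05. On day 2 all black circles lie between 0.67 and 1.03, and on day 3 Camp, S100a8 and S100a9 lie at 0.05, 0.02 and -0.02.

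After 3 days the differences were spread more widely, from -0.02 to 0.81 on the log2 scale (median 0.59, all genes -0.02). Mmp9 measured 523, 718, 629 and 532 CPM in DTRADQ and 306, 391, 433 and 243 CPM in controls (log2 difference 0.81, SE 0.20, adjusted p = 0.00317). Lcn2 measured 5774, 6567, 5582 and 4737 CPM against 2977, 3999, 4303 and 2521 (0.72, SE 0.20, adjusted p = 0.00865). Retnlg measured 6266, 6811, 6760 and 6188 CPM against 4261, 4009, 4498 and 2161 (0.80, SE 0.24, adjusted p = 0.0146). These were the 3 genes of 10 that passed, against 8.8% of all genes higher in DTRADQ, and their groups did not overlap. Ltf, Ngp and Mmp8 did not overlap either, with log2 differences of 0.73 (SE 0.35), 0.52 (SE 0.33) and 0.67 (SE 0.29), which makes 6 of 10 against 14.9% of all genes. Ly6g stood at 0.41 (SE 0.19). The 3 nearest to 0 were Camp, S100a8 and S100a9. S100a8 measured 48376, 44498, 37930 and 33094 CPM in DTRADQ and 44836, 39530, 48397 and 29048 in controls (log2 difference 0.02, SE 0.28). Camp measured 8682, 8917, 7408 and 6556 CPM against 7709, 7613, 9670 and 5451 (0.05, SE 0.24), and S100a9 differed by -0.02 (SE 0.26). The signs of these 3 small differences changed with the scaling or the libraries left out. Without control replicate 4 of day 3, the lowest of its group for each of the 10 genes, 1 of the 10 passed (Mmp9), with Lcn2 at adjusted p = 0.0522 and Retnlg at 0.0826. Without the 2 no-DT control libraries that stood apart, Ltf, Lcn2, Ngp, Retnlg, Mmp8 and Mmp9 passed, against 15.2% of genes.

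The change of the genotype difference from day 2 to day 3 was tested directly, a comparison chosen after the values had been seen. For S100a9 the difference was lower by 0.69 on day 3 on the log2 scale (log2 value -0.69, SE 0.37, adjusted p = 0.548), for S100a8 the value was -0.68 (SE 0.40, adjusted p = 0.612) and for Camp -0.63 (SE 0.34, adjusted p = 0.557). For Mmp9 it was 0.05 (SE 0.28). None of the 10 passed by edgeR's quasi-likelihood test, against 1.36% of all genes, none had an unadjusted p below 0.05, and none passed by DESeq2 or voom. The wider spread among the 10 genes on day 3 was thus seen in the group values but did not pass this test.

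Ratios of counts within a library need no scaling between libraries. The ratio of S100a8 to S100a9 counts lay between 1.90 and 2.35 in all 32 libraries. Its group means were 2.18 in DTRADQ and 2.25 in controls without toxin, 2.13 and 2.10 on day 1, 2.00 and 1.98 on day 2, and 2.05 and 1.99 on day 3 (n = 4 per group). An exact permutation test of 4 against 4 libraries gave p = 0.2, 0.83, 0.657 and 0.486 for the 4 days (0.8 to 0.83 after adjustment over the 4 days, smallest possible p 0.0286). In control no-DT replicate 4, where S100a8 was at 2.64 times the mean of replicates 1 and 2, the ratio was 2.32. The other ratios were chosen after the values had been seen and were not tested. On day 3, Ltf over S100a8 lay between 0.248 and 0.32 in DTRADQ and between 0.158 and 0.214 in controls. Ngp over Camp lay between 4.29 and 4.89 in DTRADQ and between 2.91 and 3.63 in controls on day 3, and between 4.33 and 4.53 against 3.60 and 4.11 on day 2. Retnlg over Ngp lay between 0.166 and 0.203 in DTRADQ and between 0.13 and 0.164 in controls on day 3. None of these 3 ratios overlapped between the genotypes on day 3. On day 2, Ltf over S100a8 (0.274 to 0.304 against 0.196 to 0.308) and Retnlg over Ngp (0.128 to 0.168 against 0.101 to 0.153) did overlap.

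**Figure D4:**
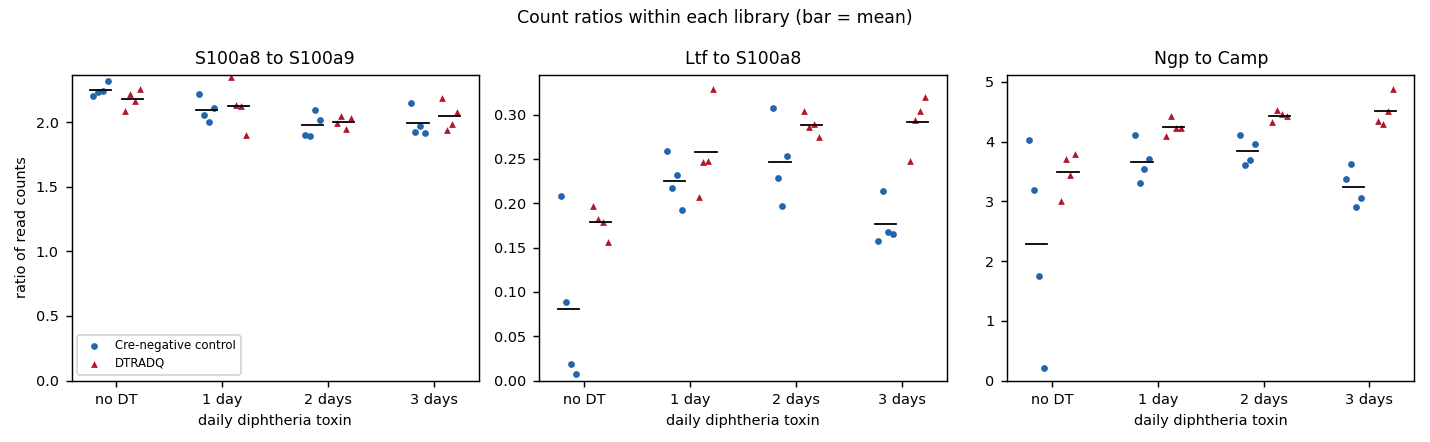
Ratios of read counts within each library by days of toxin for S100a8 to S100a9, Ltf to S100a8 and Ngp to Camp, with circles for controls, triangles for DTRADQ and bars at group means. The first ratio stays between 1.90 and 2.35 throughout, while on day 3 the DTRADQ libraries lie above the controls in the other 2.

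Within the DTRADQ genotype, toxin was followed by higher levels of part of the list. On day 1, 0 of the 10 genes passed against the no-DT group by edgeR or DESeq2 and 1 by voom, against 1.26% of all genes higher, and 1 (Mmp9) had an unadjusted p below 0.05. On day 2, 2 of the 10 were higher, Mmp9 (log2 change 0.73, SE 0.20, adjusted p = 0.0173) and Lcn2 (0.62, SE 0.20, adjusted p = 0.0456), against 4.27%. On day 3, 4 of the 10 were higher, against 12.5%: Mmp9 by 1.11 (SE 0.20, adjusted p = 0.000101), Mmp8 by 0.88 (SE 0.29, adjusted p = 0.0197), Retnlg by 0.79 (SE 0.24, adjusted p = 0.0128) and Lcn2 by 0.66 (SE 0.20, adjusted p = 0.0123). Mmp9 rose from 335, 320, 233 and 224 CPM without toxin to 523, 718, 629 and 532 CPM after 3 days, and Mmp8 from 1954, 1929, 1736 and 1265 to 3100, 3523, 3189 and 2865. Neither pair of groups overlapped. Against the no-DT group, 5, 7 and 7 of the 10 genes did not overlap on days 1, 2 and 3. The share of all genes without overlap is not given here, so these counts cannot be judged against it. Mmp8 lost its day 3 call without no-DT replicate 4 (adjusted p = 0.0817). S100a8, S100a9 and Camp stood at -0.01, 0.08 and -0.01 on day 3 (SE 0.28, 0.26 and 0.24), with S100a8 means of 41363 ± 3297 CPM (SD, n = 4) without toxin and 40974 ± 6796 after 3 days. The count of 2 on day 2 fell to 0 or 1 without any single one of the 4 no-DT DTRADQ libraries or of day-2 replicates 2, 3 or 4. Day 3 also differs from no DT in the lane label, and the part of the lane was not tested. The toxin days share their no-DT group.

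Within the controls, which lack Cre, 6 genes were lower than without toxin on each toxin day: Lcn2, Camp, Retnlg, Ly6g, S100a8 and S100a9, against 17.4%, 14.4% and 15.4% of all genes on days 1, 2 and 3. On day 2 the log2 changes were -0.78 for Lcn2 (SE 0.20), -1.05 for Ly6g (SE 0.19), -1.52 for Retnlg (SE 0.24), -1.59 for S100a9 (SE 0.27), -1.70 for Camp (SE 0.25) and -1.79 for S100a8 (SE 0.29). On day 3, Mmp8 (0.95, SE 0.29, adjusted p = 0.0116) and Mmp9 (0.76, SE 0.20, adjusted p = 0.0037) were higher, against 14.8% of genes. The groups of all 6 lower genes did not overlap on days 1 and 2, against 8.84% and 7.94% of all genes, and on day 3 those of 1, Retnlg, did not, against 8.07%. On day 3, Lcn2 lost its call without no-DT replicate 2 or 3 or day-3 replicate 1 or 4, Ly6g without no-DT replicate 2 or 4 or day-3 replicate 4, and Mmp8 without no-DT replicate 3. All of these comparisons rest on the 4 no-DT control libraries, of which 2 stood apart. Fitted on the 2 groups alone, 1, 2 and 0 of the 10 passed on days 1, 2 and 3. Without no-DT replicates 3 and 4, 7, 7 and 3 passed. S100a9 on day 3 then stood at -0.30, and at 0.075 with the length correction as well. For these fits the share of all genes called is not given here, so their counts cannot be judged against it. The fits without replicates 3 and 4 kept no-DT replicate 2, which lay above every library of the other groups for several of these genes.

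The difference between the genotypes after toxin was compared with that without toxin. Lcn2, Camp, Retnlg, Ly6g, S100a8 and S100a9 passed on each day, 6 of 10 against 6.51%, 6.22% and 9% of all genes higher. Retnlg had the largest values, 1.97 (SE 0.34, adjusted p = 0.000334) on day 1, 2.10 (SE 0.34, adjusted p = 0.000236) on day 2 and 1.87 (SE 0.34, adjusted p = 0.000237) on day 3. At day 3 the S100a8 call ended without any 1 of 10 of the 16 libraries (adjusted p 0.0504 to 0.0876), all but DTRADQ no-DT replicate 4, control no-DT replicates 1 and 2, DTRADQ day-3 replicates 3 and 4 and control day-3 replicate 3. The S100a9 call ended without any 1 of 12 (adjusted p 0.0528 to 0.0927), all but control no-DT replicates 1 and 2, DTRADQ day-3 replicate 4 and control day-3 replicate 3. Without TMM scaling 3, 5 and 1 of the 10 passed on days 1, 2 and 3, and with the length correction 3, 6 and 2. Each value is the genotype difference after toxin minus that without toxin. On days 1 and 2 all 6 genes had higher mean levels in DTRADQ after toxin. On day 3 the difference after toxin was near 0 for S100a8 (0.02), S100a9 (-0.02) and Camp (0.05). Without toxin these 3 stood at -1.12, -1.07 and -1.16, so their day 3 values came from the difference without toxin. Without control no-DT replicates 3 and 4, Retnlg stood at 1.62, 1.76 and 1.54 and still passed on each day. S100a8 then stood at 0.86, 1.14 and 0.47 and passed on day 2 only, and 5, 8 and 4 of the 10 passed on days 1, 2 and 3. That fit kept control no-DT replicate 2, in which Retnlg and S100a8 lay above every library of the other groups. For these other fits the share of all genes called is not given here, so their counts cannot be judged against it. The 3 days share their no-DT groups. At day 3 the comparison also follows the lane label.

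Between neighbouring toxin days, none of the 10 genes passed the test. In DTRADQ, 0 of 10 passed from day 1 to day 2, against 0.785% of all genes, and 0 of 10 from day 2 to day 3, against 5.62%. In controls 0 of 10 passed, against 0% of all genes on both steps by edgeR (332 and 841 genes at an unadjusted p below 0.05, and 0 and 1 by DESeq2). With unadjusted p, no member was below 0.05 in DTRADQ, and in controls Ly6g (0.46, SE 0.19), S100a8 (0.64, SE 0.28) and S100a9 (0.62, SE 0.26) were, from day 2 to day 3. Neither DESeq2 nor voom called a member on any of these steps.

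The other genes of the neutrophil program were taken from lists. Over all genes tested, 0.888%, 4.4% and 8.8% were higher in DTRADQ on days 1, 2 and 3, and 3.02%, 4.12% and 14.1% lower. Of 13 tested genes of other specific and gelatinase granule proteins, 0, 6 and 4 were higher in DTRADQ than in same-day controls on days 1, 2 and 3, and none was lower. Itgam, the alpha chain of the Mac-1 integrin, led on day 2 (log2 difference 0.85, SE 0.22, adjusted p = 0.015) and Mmp25, a membrane-bound metalloproteinase, on day 3 (1.12, SE 0.27, adjusted p = 0.00301). Of 22 other genes of mature neutrophils, 0, 4 and 8 were higher. Fpr2, a receptor for formylated peptides, led on day 2 (0.92, SE 0.22, adjusted p = 0.00678) and Stfa2l1, a stefin, on day 3 (1.32, SE 0.25, adjusted p = 0.000199). The 1 gene of that list that was lower was Ccrl2, a chemoattractant-binding receptor, on day 3 (-1.25, adjusted p = 1.5e-05). The median log2 differences on day 2 were 0.75 for the granule list, 0.65 for the mature list and 0.81 for the 10 genes, beside -0.04 for all genes tested.

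Genes of earlier stages followed, with the same shares of all genes beside them (4.4% higher on day 2 and 14.1% lower on day 3). Of 8 primary granule genes, 0, 1 and 0 were higher on days 1, 2 and 3 and none was lower. The 1 was Serpinb1a (0.79, SE 0.25, adjusted p = 0.0448), an inhibitor of neutrophil serine proteases. Mpo, myeloperoxidase, stood at 0.05, 0.42 and 0.01 (SE 0.28 on each day), and Elane, neutrophil elastase, at 0.07, 0.30 and -0.32 (SE 0.21). Whether the primary granule genes differ from the late genes was not tested. Of 8 granulopoiesis transcription factors, 2 were higher on day 2, Cebpe (0.67, SE 0.18, adjusted p = 0.0197) and Klf5 (0.68, SE 0.21, adjusted p = 0.0357, named after its value was seen). On day 3 Cebpe stood at 0.13 (SE 0.18), and 3 factors were lower, led by Runx1 (-0.45, SE 0.11, adjusted p = 0.0044), with Cebpa (-0.77) and Cebpd (-0.63), named after their values were seen.

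**Figure D5:**
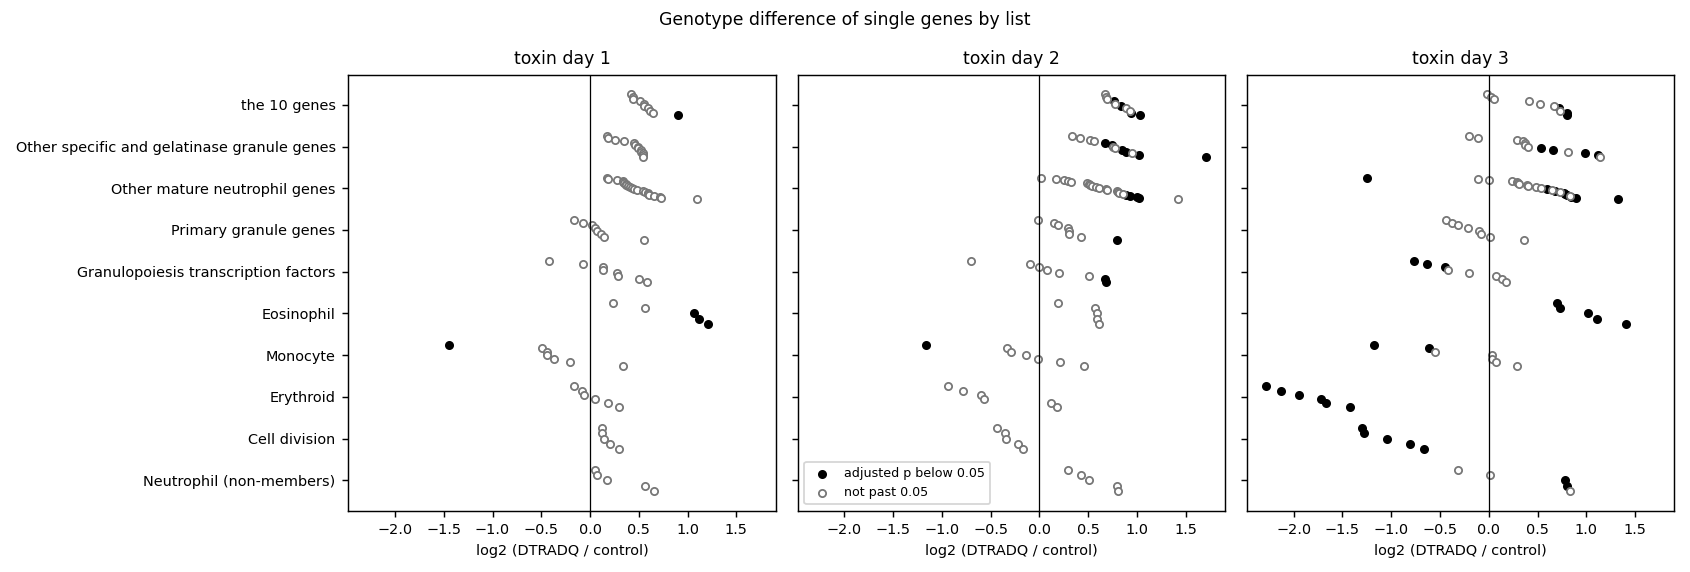
Log2 difference DTRADQ over control on toxin days 1, 2 and 3 for each gene of 10 lists, filled where the adjusted p was below 0.05. The 10 genes lie between 0.42 and 0.90 on day 1 and between 0.67 and 1.03 on day 2. On day 3 all 6 erythroid and all 5 cell division genes lie to the left of 0 and the 3 lowest of the 10 genes near 0.

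Among the signals that hold or release neutrophils, Cxcl12 was lower in DTRADQ on each toxin day, by log2 values of -4.22 (SE 0.20), -3.48 (SE 0.19) and -3.97 (SE 0.20), each past the test. Cxcr4, its receptor, stood at 0.28, -0.76 and -0.17 (SE 0.30 on each day) and did not pass. On day 2 control replicate 1 held 243 CPM of Cxcr4, against 52.4 to 66.7 in the other controls and 58.1 to 66.0 in DTRADQ, and without it the difference was 0.08. Cxcl1, a ligand of the release receptor CXCR2, had 62.5 to 175 CPM on day 1 in DTRADQ libraries, against 0 to 0.626 CPM in control libraries. On day 2 it measured 73.1, 0.524, 1.55 and 1.37 CPM in DTRADQ and at most 0.840 in controls. That difference passed with all libraries (5.97, SE 1.32, adjusted p = 0.00462) and did not without DTRADQ replicate 1 (1.94, adjusted p = 0.375). On day 3 it measured 0.341, 0, 12.1 and 0.900 CPM in controls and at most 1.47 in DTRADQ. Cxcl2, another such ligand, differed by 3.23 on day 1 (SE 0.67, adjusted p = 0.00266), 2.39 on day 2 (SE 0.71, adjusted p = 0.0323) and -0.68 on day 3 (SE 0.57). The day 2 call of Cxcl2 ended without DTRADQ replicate 1 or 4 or control replicate 2, 3 or 4 (adjusted p 0.0523 to 0.114). On day 3 control replicate 3 held 17.7 CPM of Cxcl2, and without it the difference was 1.20 (adjusted p = 0.0479). Cxcr2 (0.80, SE 0.28, adjusted p = 0.0402) and Csf3r, the receptor for G-CSF (0.78, SE 0.25, adjusted p = 0.0251), were higher on day 3. Csf3, which encodes G-CSF, fell below the filter on low counts.

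Markers of other marrow cells moved on the same days. Over all genes tested, 0.888% were higher in DTRADQ on day 1 and 8.8% on day 3. On day 1, 3 of 5 eosinophil markers were higher in DTRADQ, with summed levels of 8998 to 14100 CPM (as a share of all counts, without TMM) against 4475 to 8843 in controls, and on day 3 all 5 were higher, with 7401 to 13640 against 3904 to 6319. On day 3 all 6 erythroid markers were lower, against 14.1% of all genes lower, with summed levels of 1033 to 1569 CPM against 4163 to 6072. All 5 cell division markers were also lower on day 3, with 969.7 to 1130 CPM against 1975 to 2820. On day 2, when the 10 genes separated completely on TMM-scaled CPM, 0 of 5 eosinophil, 0 of 6 erythroid and 0 of 5 cell division markers passed. On that day 1 of 7 monocyte markers was lower (4.12% of all genes were), as 1 was on day 1 (3.02%). Summed without TMM, the cell division markers did not overlap on day 2, with 1399 to 2317 CPM in DTRADQ against 2369 to 2798. The same held for the B lineage, with 663.2 to 1184 CPM against 1299 to 2010 and 2 of 7 markers lower. TMM factors on day 2 were 0.886 to 0.989 in DTRADQ and 1.13 to 1.19 in controls. Dividing by these factors makes both sums overlap between the genotypes. Also without TMM, summed eosinophil (5766 to 8352 against 3991 to 7037), erythroid (2223 to 4937 against 4042 to 5944) and monocyte markers (1679 to 2310 against 1994 to 2497) overlapped. Of 5 skeletal muscle markers, 4 were higher on day 3, with 85.0 to 599.8 CPM against 24.6 to 50.9. All markers of these 6 lists were above 0 in each group. Their part in the levels of the 10 genes was not tested.

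Across libraries, the pattern of the 10 genes depended on the libraries that stood apart. Over 32 libraries, the pairwise Pearson correlations of log2 CPM among the 10 genes ran from -0.42 to 0.99 (45 pairs, median 0.52), and over 30 libraries without control no-DT replicates 3 and 4 from 0.33 to 0.98 (median 0.81). The libraries share a tissue, a scaling and, within a group, a condition, so these values are a description. The 5 genes most like the mean standardised profile of the 10, among 8569 whose log2 CPM averaged 3 or more, were Ckap4 (r = 0.938), Mcemp1 (0.937), Scrg1 (0.923), Fpr2 (0.902) and AA467197 (0.894) over 32 libraries. Over 30 libraries they were Mcemp1 (0.980), Fpr2 (0.965), Anxa1 (0.963), Dhrs7 (0.963) and Ceacam10 (0.963). Mcemp1 and Fpr2 were in both sets.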

How the data were processed

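RNA from 32 marrow samples was measured by RNA-seq. Libraries were made with Clontech SMARTer v1, per the labels' protocols. Build GRCm38 and the tools STAR 2.0.4b, featureCounts 1.45, Subread and bcl2fastq are listed in the submitters' processing notes. For the annotation release, strand setting and multiply mapping reads, nothing is given in the sources used here. The deposited files hold, per gene and library, raw read counts, and CPM and RPKM that the authors computed from them. The CPM and RPKM of the deposited files were recomputed from the counts and exon lengths as a check.

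Genes were filtered with filterByExpr (minimum count 10), scaled by TMM and fitted with edgeR 4.0.16 (R 4.3.3) as 8 group means over 32 libraries. The quasi-likelihood test was two-sided, with Benjamini-Hochberg adjustment over 14527 genes per comparison and a threshold of 0.05. CPM in the text are TMM-scaled unless said otherwise. Exact permutation tests used scipy 1.17.1. The fit was tested on simulated data. Alternatives were DESeq2 1.42.0, limma 3.58.1 (voom with library weights), other scalings, no filter, only the groups compared, a replicate block, each library left out, and control no-DT replicates 3 and 4 left out; a correction for exon length was added after seeing the data.

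All 10 genes were named by rule, with 12 fixed signal and marker genes and, per list, the called gene of smallest adjusted p in each direction. The members and lists were chosen with earlier results of these data known. Each group held 4 mice. The deviations of same-numbered libraries from their group means correlated at 0.18 to 0.23 without toxin and 0.12 to 0.16 on day 3, which meets the rule for treating numbers as pairs, and at -0.26 to 0.16 on days 1 and 2, which does not. The labels do not say what the numbers stand for.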

Additional observations from a re-analysis of the deposited data

Results flagged for a closer look

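In 4 of the 80 sets of 4 libraries (10 genes in 8 groups), the highest library lay far from the others, its gap to the nearest divided by the range of the group exceeding the critical value of Dixon's test for 4 samples. Chance gives about 1 such set in 20, which is the share seen here. All 4 were DTRADQ libraries after toxin. Ltf in replicate 3 of day 2 had a gap of 0.869 of the range, Camp in the same library 0.866, Camp in replicate 2 of day 1 0.845, and Ngp in that library 0.83. Without these libraries, Retnlg lost its day 1 call (replicate 2) and Mmp9 its day 2 call (replicate 3).

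The genotype difference after toxin differed from that without toxin, by edgeR's interaction test, for 6 genes on each day, on the log2 scale. On day 1 the values were 1.07 for Lcn2, 1.60 for Camp, 1.97 for Retnlg, 1.18 for Ly6g, 1.56 for S100a8 and 1.49 for S100a9. On day 2 they were 1.40 for Lcn2, 1.84 for Camp, 2.10 for Retnlg, 1.46 for Ly6g, 1.82 for S100a8 and 1.74 for S100a9. On day 3 they were 1.18 for Lcn2, 1.21 for Camp, 1.87 for Retnlg, 1.03 for Ly6g, 1.14 for S100a8 and 1.05 for S100a9. All 18 rest on the same no-DT groups, in which control replicates 3 and 4 stood apart.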

How the results depend on the processing

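For the genotype difference without toxin (5 passed), 0 passed with only the groups compared, 1 without control no-DT replicates 3 and 4, 3 with an exon-length correction and 0 with both. On day 1 (1 passed), 2 passed by DESeq2, 10 by voom with library weights, 2 with only the groups compared, 6 without the 2 libraries and 6 with the length correction as well. Over all genes, voom called 2150 in either direction on that day. On day 2 (4 passed), all 10 passed by DESeq2, by voom, with only the groups compared and without the 2 libraries, with or without the length correction. On day 3 (3 passed), 7 passed by voom, 5 with only the groups compared, 6 without the 2 libraries and 7 with the length correction as well. Over all genes, voom called 5724 in either direction on day 3. For most other settings the share of all genes called is not given beside these counts.

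For the genotype by toxin difference, day 1 (6 passed) gave 3 without TMM, 2 with only the groups compared and 3 with the length correction, with or without the 2 libraries. Day 3 (6 passed) gave 1 without TMM, 3 with only the groups compared, 2 with the length correction and 3 with both. Toxin in controls gave 1, 2 and 0 on days 1, 2 and 3 with only the groups compared (6, 6 and 8 passed), 3 on day 3 without the 2 libraries, and 2 on day 1 and 0 on day 3 with the length correction as well. Toxin in DTRADQ on day 1 (0 passed) gave 1 by voom and 1 with only the groups compared. On day 2 (2 passed) it gave 0 without TMM, 1 without the low-count filter, 5 by voom, 7 with only the groups compared, 6 without the 2 libraries and 7 with the length correction as well. On day 3 (4 passed) it gave 7 with only the groups compared and 7 with the length correction and without the 2 libraries. The cause of these changes was not tested. Between neighbouring days, and for the genotype difference of day 3 minus day 2, 0 passed under every setting run.

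With each library left out in turn, 5 to 9 passed without toxin, 0 to 3 on day 1, 3 to 4 on day 2 and 1 to 4 on day 3. The genotype by toxin counts ran from 6 to 7, 6 to 7 and 4 to 6, toxin in controls from 6 to 8, 6 to 8 and 6 to 9, and toxin in DTRADQ from 0 to 0, 0 to 2 and 3 to 4. Of the reversed directions, 1 concerned a difference that passed: S100a9 under toxin in controls on day 3 was -0.97 and past the test with all libraries and 0.075 with the length correction and without the 2 libraries. The other reversed differences were near 0 and did not pass. Ngp without toxin was 0.19 without TMM and 0.21 with the length correction, and -0.46 to 0.20 with single libraries left out. On day 3 Camp was -0.10 without TMM (-0.079 to 0.189 with single libraries left out), and S100a8 -0.14 without TMM and -0.0099 by voom (-0.11 to 0.12). S100a9 on day 3 was 0.0196 with DESeq2 size factors, 0.0196 by DESeq2, 0.0204 with the length correction, 0.0074 without the 2 libraries and 0.037 with both (-0.134 to 0.091).

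With the replicate number as a block, 7 passed without toxin and 1, 5 and 3 on days 1, 2 and 3. The block added Ltf and Mmp8 without toxin and Mmp8 on day 2 (adjusted p = 0.048). It gave 6, 6 and 6 for genotype by toxin, 7, 6 and 8 for toxin in controls and 0, 2 and 4 in DTRADQ. Over all genes, the calls of the genotype difference ranged over these settings from 0 (only the groups compared) to 5833 (no TMM) without toxin, from 534 (no low-count filter) to 2150 (voom) on day 1, from 1120 (no low-count filter) to 4223 (no TMM) on day 2 and from 2936 (no low-count filter) to 5724 (voom) on day 3. The length correction was chosen after seeing the data.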
